A study of Rattus norvegicus with 8 samples.

Results

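Major histocompatibility complex (MHC) class II molecules carry peptides from engulfed or endosomal proteins to the cell surface, where helper T cells read them. The peptides are loaded in endosomes. Dendritic cells, macrophages, and B cells make these molecules constitutively, and other cells, thyroid follicular cells among them, can be induced to make them by interferon gamma. The rat MHC is named RT1. This account covers 8 of its genes and partners in the rat thyroid: the alpha and beta chains of the RT1-B molecule (RT1-Ba and RT1-Bb) and of the RT1-D molecule (RT1-Da and RT1-Db1), the chaperones RT1-DMa and RT1-DMb, the invariant chain Cd74, and the transactivator Ciita. The genes were chosen by symbol, 8 of 30560 gene identifiers, and each was represented by the transcript with the highest total count. All 8 passed the filter on low counts in every comparison.

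RNA-Seq was performed on the thyroids of 8 male Wistar rats, 2 in each of 4 groups. The 1w0Gy and 1w4Gy rats received sham treatment or cervical X-rays at 4 Gy at 1 week of age, and the 4m0Gy and 4m4Gy rats received the same at 4 months of age. Thyroids were taken about 8 weeks after treatment, so "age" below means age at irradiation and, with it, age at sampling. The 1w rats were male pups born to purchased dams and the 4m rats were obtained as older males, so age and origin of the animals cannot be told apart. The RNA samples sequenced were the ones with the higher RNA integrity in each group. The libraries held 14835400 to 18138102 counts on genes (median 16180960). Levels are given as CPM, counts scaled to the TMM library size (TMM corrects library sizes for a few dominant genes). The tissue was whole thyroid. Thyroglobulin (Tg), the follicular cell's hormone precursor, was at 182565 to 216489 CPM. The parathyroid hormone gene Pth was at 298 CPM in the second 4m4Gy rat and at 1848 to 5306 CPM in the others. In such bulk tissue, fewer cells of a type and less RNA per cell cannot be told apart.

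Class II genes share a promoter module. An X box binds the RFX complex, a Y box with the core ATTGG binds NF-Y, and Ciita is recruited to these bound factors without contacting DNA by itself. The sequences are shown to describe this module in these genes, and its part in their levels over the samples was not tested. RefSeq promoter windows of 300 bases (250 before to 50 after the gene start, build GRCr8) matched 6 of the 8 genes. The stretch holding the boxes is given 5′ to 3′ on the gene strand, with X-like boxes and Y boxes on either strand in capitals.
RT1-Da: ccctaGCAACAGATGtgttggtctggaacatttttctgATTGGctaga
RT1-Db1: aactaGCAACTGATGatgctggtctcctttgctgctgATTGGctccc
RT1-Bb: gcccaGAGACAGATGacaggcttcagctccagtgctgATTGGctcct
RT1-DMa: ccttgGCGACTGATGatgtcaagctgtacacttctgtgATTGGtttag
RT1-Ba: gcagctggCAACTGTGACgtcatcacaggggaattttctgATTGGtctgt
Cd74: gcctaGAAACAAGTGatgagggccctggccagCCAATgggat

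The stretches lie at chr20:4515328-4515375 (+ strand) for RT1-Da, chr20:4560233-4560279 (- strand) for RT1-Db1, chr20:4604170-4604216 (- strand) for RT1-Bb, chr20:4712390-4712437 (- strand) for RT1-DMa, chr20:4576974-4577023 (+ strand) for RT1-Ba, and chr18:56526985-56527026 (+ strand) for Cd74. All of them are upstream of the gene start. The X-like box was searched as GNNAC followed, after 3 bases of any kind, by TG, and the Y box as ATTGG, both on either strand. The letters of the X-like box were loosened after these windows were seen. The share found in these 6 windows was therefore shaped by them and is no test of enrichment. An X-like box followed by a Y box on the gene strand, with first bases 25 to 40 bases apart, was present in 4 of the 6 windows and in 0.424% of all 33469 windows. RT1-Da, RT1-Db1, RT1-Bb, and RT1-DMa held it. In the RT1-Ba stretch the only X-like match was on the opposite strand. In Cd74 the Y box was on the opposite strand, read as CCAAT, and lay 189 bases before the start. Each box by itself was common: 37.5% of all windows held a Y box and 39.8% an X-like box on some strand. A match describes letters, not occupancy.

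**Figure D1:**
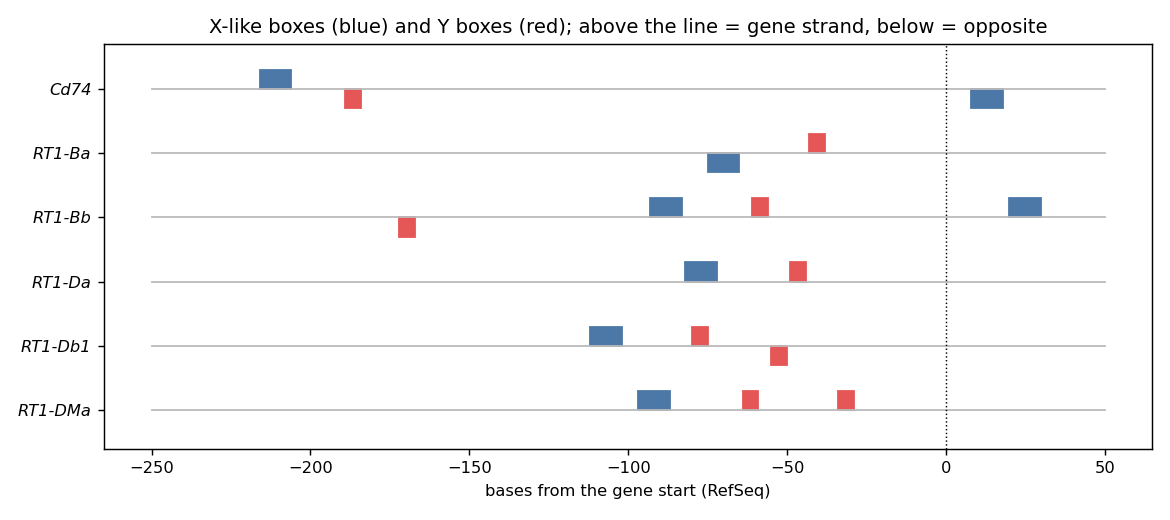
Positions of X-like boxes (blue) and Y boxes (red) in the RefSeq promoter windows of 6 class II genes, in bases from the gene start, with boxes on the gene strand above each line and on the opposite strand below it. In RT1-Bb, RT1-Da, RT1-Db1, and RT1-DMa an X-like box precedes a Y box on the gene strand.

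Cd74 was the most abundant of these transcripts. Per kilobase of transcript its level over the 8 rats was 105 ± 24.6 CPM per kb (SD, n = 8), and Ciita was the least abundant at 0.543 ± 0.147 CPM per kb. The other 6 lay between RT1-Ba at 30.6 ± 7.35 and RT1-Db1 at 6.99 ± 1.80 CPM per kb. Between them came RT1-DMa (16.8 ± 2.15), RT1-Da (15.5 ± 3.28), RT1-DMb (12.1 ± 2.25), and RT1-Bb (9.55 ± 2.37 CPM per kb). With the transcripts used, only RT1-DMa and RT1-Da, among neighbours in this order, differed by less than their spreads. The order of these 6 genes, its ends included, depends on the transcript length used. Transcripts of RT1-Bb from 1695 to 5136 bases held 5809 to 6507 counts, and those of RT1-Da from 1190 to 3923 bases held 8036 to 8062. For RT1-Db1, transcripts of 1270 and 5068 bases held 927 and 933 counts in the first 1w0Gy rat.

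The clearest difference in these genes was with age. Over both doses, Cd74, RT1-Ba, RT1-Bb, RT1-Da, and RT1-Db1 were lower in the 4 rats treated at 4 months than in the 4 treated at 1 week. The fall was between 28.3% for RT1-Da and 35.2% for RT1-Db1. In each of these 5 genes every 4m rat was below every 1w rat. RT1-DMb and Ciita were also lower on average but did not pass the test, and RT1-DMa was higher on average and did not pass it either.

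Cd74 encodes the invariant chain, which fills the peptide groove of new class II molecules and steers them to endosomes. It was at 334 and 283 CPM (1w0Gy), 270 and 271 (1w4Gy), 155 and 212 (4m0Gy), and 212 and 207 (4m4Gy). The lowest value by far was the first 4m0Gy rat, and the ages did not overlap. The log2 difference over both doses (4m minus 1w) was -0.56 ± 0.11 (SE), with an adjusted p of 0.0238 by edgeR's quasi-likelihood test.

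RT1-Ba and RT1-Bb encode the 2 chains of RT1-B, the rat counterpart of human HLA-DQ. RT1-Ba was at 53.6 and 56.2 CPM (1w0Gy), 49.2 and 44.7 (1w4Gy), 27.7 and 36.4 (4m0Gy), and 37.0 and 33.9 (4m4Gy). RT1-Bb was at 68.4 and 62.1 CPM (1w0Gy), 55.0 and 51.4 (1w4Gy), 33.5 and 39.7 (4m0Gy), and 41.6 and 40.7 (4m4Gy). In both chains the 1w0Gy pair was highest, the 1w4Gy pair next, and the 4m rats lowest. The log2 differences with age were -0.59 ± 0.10 (adjusted p = 0.0143) for RT1-Ba and -0.60 ± 0.10 (adjusted p = 0.0128) for RT1-Bb by edgeR.

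RT1-Da and RT1-Db1 encode the chains of RT1-D, the counterpart of HLA-DR. RT1-Da was at 82.2 and 74.2 CPM (1w0Gy), 65.2 and 62.2 (1w4Gy), 43.3 and 55.5 (4m0Gy), and 53.7 and 50.2 (4m4Gy). RT1-Db1 was at 50.3 and 43.4 CPM (1w0Gy), 40.5 and 37.8 (1w4Gy), 23.3 and 29.3 (4m0Gy), and 30.7 and 28.0 (4m4Gy). Here too the 1w0Gy pair was highest, the 1w4Gy pair next, and the 4m rats lowest. The log2 differences with age were -0.48 ± 0.10 (adjusted p = 0.0254) for RT1-Da and -0.63 ± 0.11 (adjusted p = 0.0143) for RT1-Db1 by edgeR. RT1 beta chains are close copies, so reads may be shared between RT1-Db1 and RT1-Db2, and these 2 values are uncertain to that extent.

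RT1-DMa and RT1-DMb encode the DM heterodimer, which removes the last fragment of the invariant chain and edits the peptide. RT1-DMb was at 19.4 and 18.8 CPM (1w0Gy), 19.2 and 13.9 (1w4Gy), 12.9 and 13.4 (4m0Gy), and 13.7 and 14.1 (4m4Gy). The second 1w4Gy rat lay among the 4m rats. RT1-DMb differed by -0.40 ± 0.12 log2 units with age (adjusted p = 0.0801 by edgeR, 0.0473 by the Wald test of DESeq2), and without the second 1w4Gy rat the edgeR value was -0.51 (adjusted p = 0.0136). RT1-DMa was at 20.8 and 20.9 CPM (1w0Gy), 27.2 and 20.6 (1w4Gy), 23.1 and 22.1 (4m0Gy), and 23.6 and 28.4 (4m4Gy). Its ages overlapped, with a log2 difference of 0.12 ± 0.10 (adjusted p = 0.564 by edgeR).

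Ciita, the transactivator that the class II promoters need, was the least precisely measured of the 8, with 37 to 98 counts per rat. It was at 5.29 and 3.30 CPM (1w0Gy), 4.97 and 3.77 (1w4Gy), 2.39 and 3.40 (4m0Gy), and 3.65 and 2.78 (4m4Gy). The ages overlapped. The log2 difference was -0.50 ± 0.21 (adjusted p = 0.208 by edgeR).

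**Figure D2:**
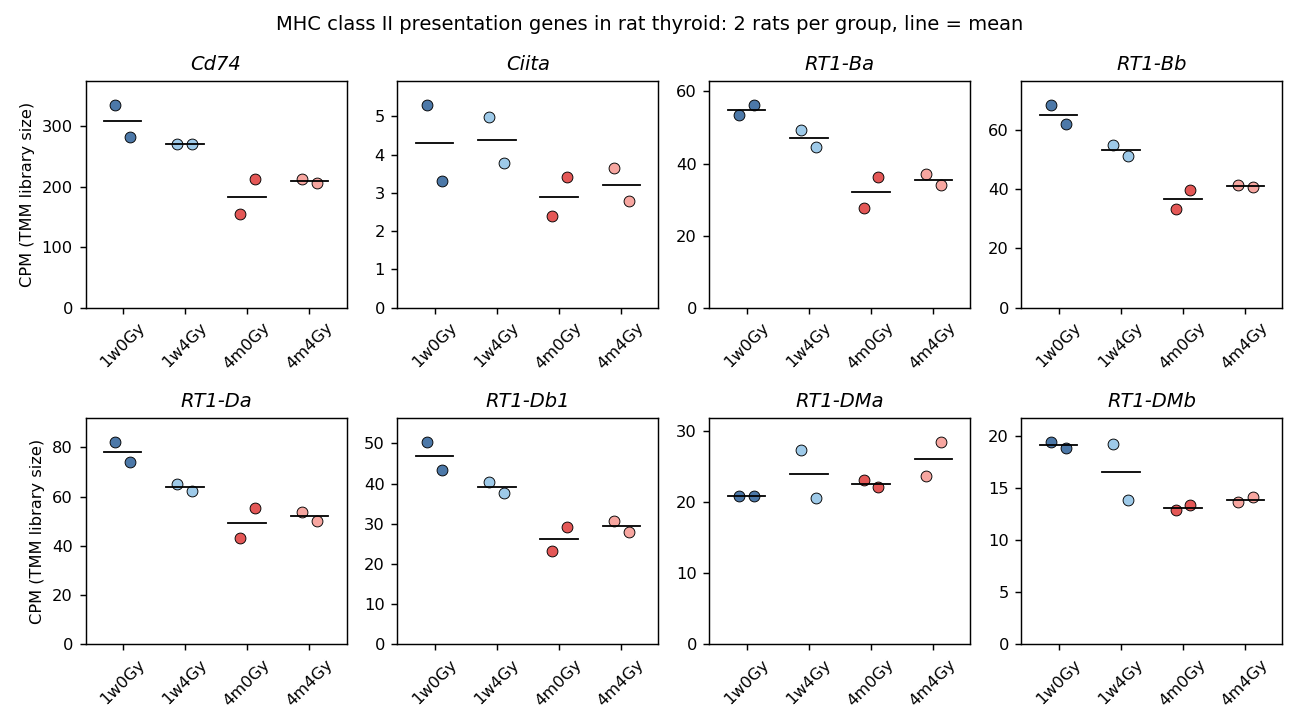
CPM of each of the 8 class II genes in each rat, with 2 points per group and a line at the group mean, and each axis starting at 0. In Cd74, RT1-Ba, RT1-Bb, RT1-Da, and RT1-Db1 all 4m points sit below all 1w points, and in RT1-DMa they do not.

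Counted over the 8 genes, 5 were called lower with age and 0 higher by edgeR, against 2.43% of the 15684 genes tested that were called lower. At an unadjusted p under 0.05, 7 were lower, against 10.6% of all genes. The samples of the ages did not overlap, with 4m lower, in 5 of the 8, against 6.61% of all genes. DESeq2 called 6 lower, against 3.67% of all genes. The median log2 difference of the 8 genes was -0.53, and that of all genes was -0.002. Without the first 1w0Gy rat, the second 1w0Gy rat, or the second 4m4Gy rat, the edgeR count was 3 in each case, with 449, 266, and 343 genes called in all, against 666. Cd74 and RT1-Da were the ones that lost the call, with adjusted p between 0.0509 and 0.0746.

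The age difference was then taken at each dose, in sets of rats that share no animal. In the sham-irradiated rats (4m0Gy minus 1w0Gy) the median log2 difference of the 8 genes was -0.71. RT1-Bb alone was called, at -0.83 ± 0.10 (adjusted p = 0.0381 by edgeR), or 1 of 8 against 0.384% of all genes called lower. At an unadjusted p under 0.05, 6 were lower (8.86% of all genes). The sham groups did not overlap, with 4m0Gy lower, in 6 of the 8 (24.8% of all genes), and DESeq2 called 5 lower (1.3% of all genes). The edgeR count was 0 without either 1w0Gy rat and 5 without either 4m0Gy rat. The count over all genes moved with it, from 111 with all 4 rats to 0 and 7 without a 1w0Gy rat and to 363 and 646 without a 4m0Gy rat. In the irradiated rats (4m4Gy minus 1w4Gy) the median log2 difference was -0.37. Here 0 of 8 were called by edgeR (0.196% of all genes called lower), 5 had an unadjusted p under 0.05 (7.33% of all genes), and DESeq2 called 1 lower (1.03% of all genes). The 4m4Gy rats lay below the 1w4Gy rats in 6 of the 8 (23.7% of all genes). RT1-DMa was the only one of the 8 that was not lower with age at either dose, with log2 differences of 0.12 ± 0.10 in sham and 0.13 ± 0.16 in irradiated rats.

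The comparison of 1w4Gy with 1w0Gy asks whether neonatal irradiation left a difference about 8 weeks later. No class II gene was called. By edgeR 0 of 8 passed, as did 0% of the 15359 genes tested, and DESeq2 called 0, with no adjusted p for Ciita. RT1-Ba, RT1-Bb, RT1-Da, and RT1-Db1 had an unadjusted p under 0.05 in the lower direction, 4 of 8 against 2.4% of all genes, with an adjusted p of 0.864 each by edgeR. Their log2 differences were -0.23 ± 0.09, -0.30 ± 0.09, -0.30 ± 0.09, and -0.26 ± 0.10 in that order. Cd74 was at -0.19 ± 0.11 (adjusted p = 0.876 by edgeR). The 1w4Gy rats lay below the 1w0Gy rats in 5 of the 8, Cd74 and these 4 chains, against 17.8% of all genes. The median of the 8 was -0.22. RT1-DMa was at 0.20 ± 0.15, higher in 1 irradiated rat only, and at -0.02 without that rat. RT1-DMb was at -0.21 ± 0.17 and Ciita at 0.02 ± 0.29.

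Irradiation at 4 months gave 0 of 8 called by edgeR (0% of the 15253 genes tested) and 0 of 8 at an unadjusted p under 0.05. DESeq2 called 0, with no adjusted p for Ciita and RT1-DMb. All 8 log2 differences (4m4Gy minus 4m0Gy) were above 0, between 0.07 for RT1-Da and 0.20 for RT1-DMa, with a median of 0.15. The 4m4Gy rats lay above the 4m0Gy rats in 3 of the 8, against 20.9% of all genes. The first 4m0Gy rat decided the sign: without it the median was -0.01, and Cd74, Ciita, RT1-Ba, RT1-Da, and RT1-Db1 were below 0.

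Whether irradiation acted differently at the 2 ages was tested by the interaction term. By edgeR 0 of 8 were called (0% of the 15684 genes tested), 2 had an unadjusted p under 0.05 in the higher direction (3.46% of all genes), and DESeq2 called 0, with no adjusted p for Ciita. The 2 genes were RT1-Bb, at 0.46 ± 0.14 log2 units (adjusted p = 0.446), and RT1-Db1, at 0.42 ± 0.17 (adjusted p = 0.532, both by edgeR). The same term compares the age differences at the 2 doses, so the difference between the sham and irradiated medians given above was not called for any gene. Irradiation over both ages had 0 of 8 called by edgeR (0.00638% of all genes), 0 at an unadjusted p under 0.05, 0 by DESeq2 (no adjusted p for Ciita), and a median log2 difference of -0.05.

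**Figure D3:**
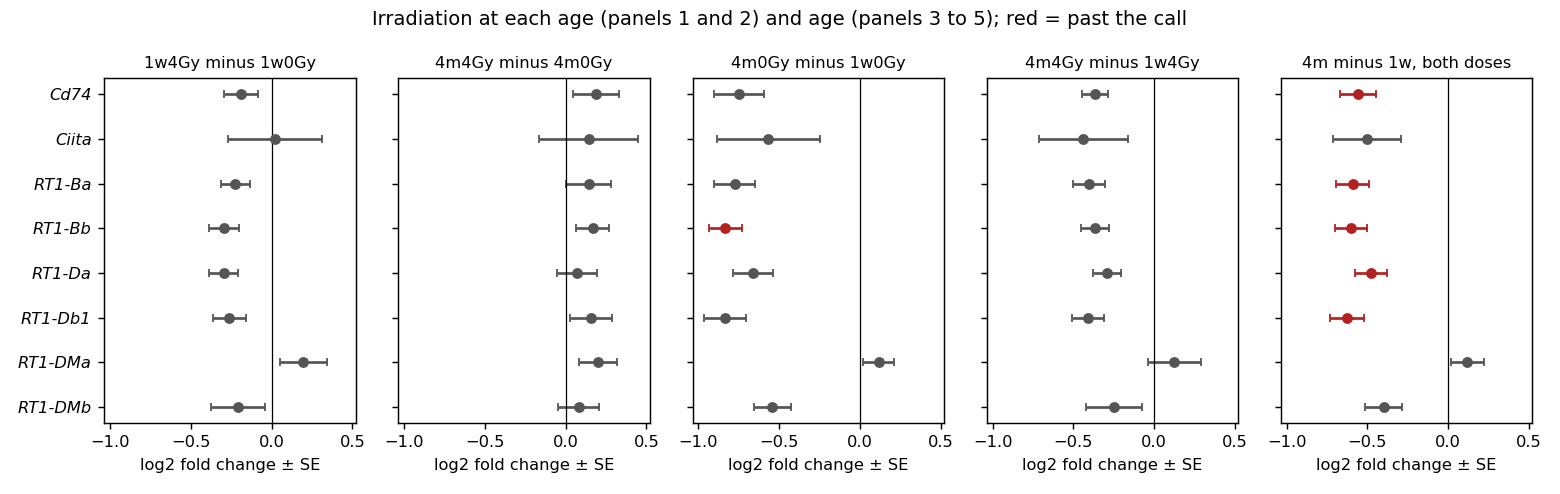
Log2 fold changes with SE (edgeR) of the 8 class II genes for irradiation at 1 week, irradiation at 4 months, age in sham rats, age in irradiated rats, and age over both doses, with calls in red. The irradiation values lie between -0.30 and 0.20, and the 5 calls over both doses lie between -0.63 and -0.48.

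The genes varied together over the rats. Among the 7 genes other than RT1-DMa the Pearson correlation of log2 CPM over the 8 rats ranged from 0.72 to 0.99 over 21 pairs, with a median of 0.90. RT1-DMa correlated with each of them at -0.44 to -0.07. These are descriptions of 8 rats that share the age grouping. The ratio of RT1-DMa to its partner RT1-DMb was 1.07, 1.11, 1.42, and 1.48 in the 1w rats and 1.79, 1.65, 1.73, and 2.01 in the 4m rats. The ratio of RT1-DMa to Cd74 was 0.0621 to 0.101 in the 1w rats and 0.104 to 0.149 in the 4m rats. In both ratios every 4m rat was above every 1w rat. Ratios were compared between the ages for all 28 pairs of the 8 genes and for Cd74 against 3 other genes, 31 exact two-sided permutation tests of 4 against 4. The smallest p this design allows, 0.0286, was reached by 6 of the 7 ratios of RT1-DMa and by 2 of the 21 among the others, RT1-Bb to RT1-Da and RT1-Da to RT1-Db1. After adjustment over the 31 tests the lowest p was 0.0984, so 0 of 31 passed. A pass would have needed more tests at the smallest p than the 9 that reached it. The adjusted values therefore cannot decide on a single ratio. The change in the 7 ratios of RT1-DMa was 0.51 to 0.75 log2 units, and in the other 21 it was -0.24 to 0.14.

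No other class II chain was called with age. RT1-DOa and RT1-DOb form the DO modulator of DM, and RT1-Db2 is a further beta chain. All 3 were low, with summed levels of 6.92 to 10.3 CPM in the 1w rats and 6.40 to 9.06 CPM in the 4m rats. None of the 3 passed by edgeR, at an unadjusted p under 0.05, or by DESeq2, with log2 differences of -0.26 ± 0.21 for RT1-DOa, -0.07 ± 0.19 for RT1-DOb, and 0.07 ± 0.25 for RT1-Db2.

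No factor that binds the class II promoters was called with age. Of 7 genes of the RFX and NF-Y complexes and Creb1, 0 were called with age by edgeR and 0 by DESeq2. At an unadjusted p under 0.05, 1 of the 7 was lower, against 10.6% of all genes. The log2 differences of the 7 ran from -0.28 to 0.10 with a median of -0.03. The most abundant, Nfyc, a subunit of NF-Y, was at 64.6 to 78.2 CPM in all rats, with a log2 difference of -0.08 ± 0.07. Nfya, the DNA-contacting subunit, was at -0.21 ± 0.08 (adjusted p = 0.171 by edgeR).

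Among 10 genes of endosomal processing, Ctss was called lower with age and 0 were called higher by edgeR, while DESeq2 called 1 lower and 2 higher. Of all 15684 genes, edgeR called 2.43% lower, and DESeq2 called 3.67% lower and 471 genes higher. Ctss encodes cathepsin S, the protease that trims the invariant chain in antigen-presenting cells. It was at 25.4 and 20.6 CPM (1w0Gy), 23.4 and 20.8 (1w4Gy), 11.2 and 14.7 (4m0Gy), and 13.7 and 13.2 (4m4Gy), with no overlap of the ages. The log2 difference was -0.77 ± 0.11 (adjusted p = 0.00703 by edgeR). The cathepsins Ctsl and Ctsb, which are abundant in the thyroid, were at 0.32 ± 0.09 (adjusted p = 0.0682) and 0.21 ± 0.07 (adjusted p = 0.129) and did not pass by edgeR. The median of the list was -0.17.

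Costimulators and the interferon gamma pathway gave no calls. Of 3 costimulators tested, 0 were called, with log2 differences of -0.41 ± 0.25 for Cd86, -0.32 ± 0.25 for Cd40, and -0.36 ± 0.21 for Cd274. Of 9 genes of the interferon gamma pathway tested, 0 were called by edgeR and by DESeq2, and the median was 0.02. At an unadjusted p under 0.05, 3 of the 9 were lower, against 10.6% of all genes. Gbp2, an interferon-induced GTPase, was at -0.46 ± 0.16 (adjusted p = 0.144). Ifng itself, named after its values were seen, had between 0 and 1 counts in each rat and was not tested.

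Class I presentation differs from class II in that nearly all cells perform it, with peptides from the cytosol. Of 13 genes, 0 were called with age by edgeR, and the median log2 difference was -0.05. At an unadjusted p under 0.05, 2 were lower and 2 higher, against 1658 and 1579 of the 15684 genes tested. DESeq2 called 1 lower, against 3.67% of all genes. B2m, the light chain shared by class I molecules, was at 0.16 ± 0.06 (adjusted p = 0.195). Psmb8, an immunoproteasome subunit, was at 0.25 ± 0.06 (adjusted p = 0.0588), and the class I heavy chain RT1-N3 was at -0.34 ± 0.09 (adjusted p = 0.0638). The ratio of Cd74 to B2m was 0.226 to 0.284 in the 1w rats and 0.128 to 0.160 in the 4m rats, a log2 change of -0.72 with an exact permutation p of 0.0286 (0.0984 adjusted).

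Markers of the cells that make class II constitutively were read beside these results. Of 12 macrophage markers found, 10 were tested with age and 5 were called lower, against 2.43% of all genes. These were Csf1r, the receptor for macrophage colony-stimulating factor, at -0.59 ± 0.11, the scavenger receptor Cd163 at -0.72 ± 0.14, the mannose receptor Mrc1 at -0.52 ± 0.12, the complement subunit C1qc at -0.58 ± 0.14, and the lysozyme Lyz2 at -0.50 ± 0.12, with adjusted p between 0.0165 and 0.0481 by edgeR. At an unadjusted p under 0.05, 9 of 10 were lower, against 10.6% of all genes, and the list's median was -0.56. The other marker, the receptor Mertk, was higher on average in the 4m rats. It was at 10.1 to 13.2 CPM in the 1w rats and 11.2 to 15.5 CPM in the 4m rats. The summed level of the list was 258 to 314 CPM in the 1w rats and 158 to 233 CPM in the 4m rats. The first 4m0Gy rat, lowest in Cd74, was also lowest in this sum. The ratio of Cd74 to Csf1r was 7.55 to 8.77 in the 1w rats and 8.13 to 9.30 in the 4m rats, a log2 change of 0.03 (exact permutation p = 0.629, adjusted 0.812). Marco and Vsig4, markers of other macrophage subsets, were at or near 0 in all rats. After neonatal irradiation 0 of 10 macrophage markers were called or had an unadjusted p under 0.05, and their median was -0.11.

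Dendritic cell markers differed widely in level, with Batf3 at 0.309 to 0.497 CPM and Irf8 at 60.3 to 107 CPM. Of 10 tested with age, Clec9a, a receptor of cross-presenting dendritic cells, was called lower at -1.61 ± 0.31 (adjusted p = 0.0208 by edgeR), with 1.05 to 1.99 CPM in the 1w rats and 0.323 to 0.663 CPM in the 4m rats. Xcr1, of the same cells, was at -1.64 ± 0.62 (adjusted p = 0.170), and Clec10a at -0.42 ± 0.16 (adjusted p = 0.158), both by edgeR. Clec9a was the 1 call by edgeR among the 10, against 2.43% of all genes called lower. Of the 10, 8 were below 0, with a median of -0.45 and a highest value of 0.32. Zbtb46 and Cd83 were higher on average in the 4m rats, with Zbtb46 at 5.94 to 7.42 CPM in the 1w rats and 6.86 to 10.4 CPM in the 4m rats. The summed level of the list overlapped between the ages, at 116 to 148 CPM in the 1w rats and 109 to 148 CPM in the 4m rats, and Irf8, at 60.3 to 107 CPM, made most of it. Pan-leukocyte markers had 0 of 6 called by edgeR and 1 called lower by DESeq2, which called 3.67% of all genes lower. At an unadjusted p under 0.05, 3 of 6 were lower, against 10.6% of all genes. All 6 were below 0, with a median of -0.41. Their most specific member, Ptprc (CD45), was at -0.45 ± 0.15 (adjusted p = 0.117). The ratio of Cd74 to Ptprc changed by -0.11 log2 units with age (exact permutation p = 0.286, adjusted 0.492).

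Lymphocyte markers were near 0. Of 10 B cell markers, 7 stayed under 1 CPM in every rat, 3 were tested, and 0 were called with age. Their summed level was 7.72 to 10.7 CPM in the 1w rats and 4.34 to 8.10 CPM in the 4m rats, and Cr2, a complement receptor, was at 0.388 to 5.94 CPM. Of 9 T cell markers, 7 stayed under 1 CPM in every rat, 2 were tested, and 0 were called, with summed levels of 6.37 to 8.84 and 5.36 to 8.03 CPM. Thymus, which lies near the thyroid, is rich in class II. Its defining marker Aire had 0 counts in all rats, 6 of 8 thymus markers stayed under 1 CPM in every rat, and Rag1 reached 1.30 CPM in the second 1w4Gy rat only.

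Other tissue markers moved with the same groups. The 5 white fat markers were all lower with age at an unadjusted p under 0.05, against 10.6% of all genes. By edgeR 3 were called, against 2.43% of all genes called lower: Adipoq at -0.97 ± 0.17, Plin1 at -0.89 ± 0.18, and Fabp4 at -0.75 ± 0.18. Their sum was 263 to 490 CPM in the 1w rats and 148 to 315 CPM in the 4m rats. All 5 were also lower after neonatal irradiation at an unadjusted p under 0.05, against 2.4% of all genes. There 0 were called by edgeR and by DESeq2, and the median was -0.64. The 3 parathyroid markers were also lower after neonatal irradiation, with no overlap in 3 of 3, against 17.8% of all genes. At an unadjusted p under 0.05, 2 were lower, against 2.4% of all genes. By edgeR and by DESeq2 0 were called, and the median was -0.61. Of 9 follicular cell genes tested, Tshr, the receptor for thyrotropin, was called lower with age at -0.28 ± 0.07 (adjusted p = 0.0417 by edgeR), against 2.43% of all genes. The median of the 9 was 0.09. Parathyroid and skeletal muscle markers had 0 called with age. Their sums ran from 343 to 5482 CPM and from 6.86 to 92.5 CPM over the 8 rats and overlapped between the ages. The part of macrophages, dendritic cells, other leukocytes, fat, or parathyroid in the class II results was not tested.

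**Figure D4:**
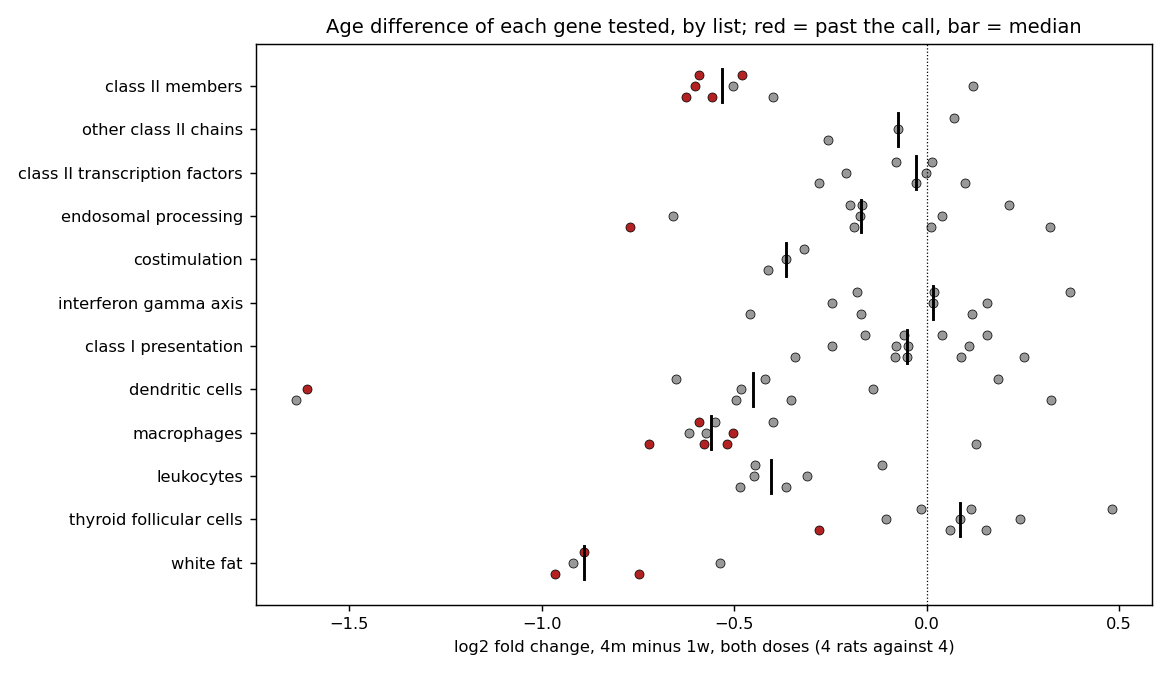
Log2 fold change with age (4m minus 1w, both doses, 4 rats against 4) of each gene tested in 12 lists, with calls in red and a bar at the median. The medians were -0.53 for the 8 class II genes, -0.56 for macrophage markers, and -0.45 for dendritic cell markers. Leukocyte markers (-0.41), costimulators (-0.36), and white fat markers (-0.89) also had medians below 0. Those of class I presentation (-0.05) and of the class II transcription factors (-0.03) lie near 0.

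**Figure D5:**
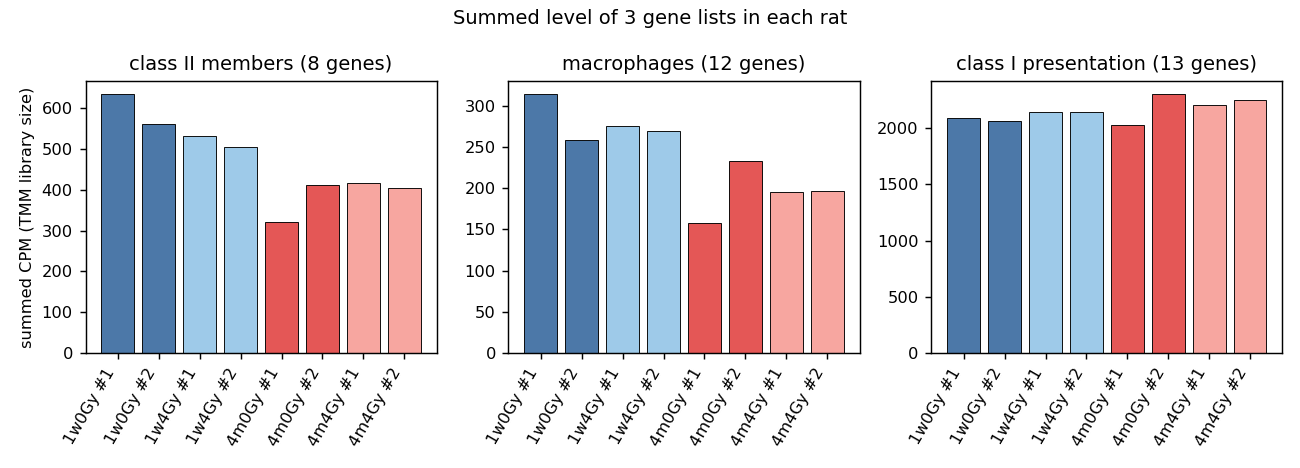
Summed CPM of the 8 class II genes, 12 macrophage markers, and 13 class I presentation genes in each of the 8 rats, with axes starting at 0. Class II sums were 505 to 635 CPM in the 1w rats and 321 to 416 CPM in the 4m rats, macrophage sums were also lower in every 4m rat, and class I sums overlapped.

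The 10 genes outside the 8 whose log2 CPM over the 8 rats was most like the mean standardized level of the class II genes had a Pearson correlation with it of 0.975 to 0.993. In order they were Cpz, Cx3cr1, Serpinf1, Tril, Pcolce, C1qc, Slc27a6, RGD1563354, Dpt, and C1qb. Cx3cr1 is the fractalkine receptor of monocytes and macrophages, and C1qb and C1qc are complement subunits that macrophages make. Pcolce and Dpt encode extracellular matrix proteins, and Serpinf1 encodes a secreted serpin. The likeness was taken over 8 rats that share the age grouping, and these genes were picked from 15684 for it.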

How the data were processed

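The authors sequenced paired reads of 8 thyroid RNA libraries, and the submitters' processing notes name HISAT2 2.2.1 (an aligner) and featureCounts 2.0.0 (a read counter). They deposited raw counts for 54991 transcripts of 30560 gene identifiers, 7162 of them unnamed. The deposited TPM values were scaled by the authors for transcript length, and served here for an alternative fold change after adding 1. Another 8 columns of per-sample values were not used. The genome build is not given in the sources used here, and RefSeq sequences (GRCr8) were joined by symbol. Transcripts of a gene hold largely the same reads, so 1 transcript per gene was used.

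Tests used edgeR 4.0.16 in R 4.3.3 (quasi-likelihood test, TMM, filterByExpr, Benjamini-Hochberg over all genes tested). Genes were called at an adjusted p below 0.05, with a fold above 1.5 or under 0.5 also required where irradiation was tested within 1 age. Irradiation at each age, age in sham rats, and age in irradiated rats were fitted on their own 4 samples, and the other comparisons on all 8. DESeq2 1.42.0 (Wald test) was an alternative, as were other normalizations, filters, transcript choices, a replicate block, robust spread estimation, and each sample left out. The code was tested on simulated data. SE is the size of the log2 change divided by the root of its F statistic. GEO's labels name separate samples and the study describes RNA from different rats. The spread is that of 2 rats per group.

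The members, 17 gene lists, and tests were chosen with earlier results of these data known, so no pattern here is independent support. Named were all 8 class II genes, from each list the most abundant gene, up to 3 with the smallest p with age, and called genes up to 5 per list, and the 10 genes most alike in pattern. Robust spread, each transcript on its own, irradiated rats alone, the crossed pairing, and all ratio tests were chosen after seeing the data. Some genes of the lists were not analysed here.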

Additional observations from a re-analysis of the deposited data

How the results depend on the processing

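With 2 rats per group, leaving out 1 rat moved several results. For age over both doses, leaving out each rat in turn gave 3 to 6 of 8 genes called (3 without either 1w0Gy rat or the second 4m4Gy rat), and the direction of all 8 genes held under every alternative run. The irradiated rats alone gave 0 calls and a median of -0.37. For age in sham rats, the count of 1 became 5 with DESeq2, 5 with no filter on low counts, 0 with counts summed over transcripts, 2 with robust spread, 4 with all 8 samples in one fit, and 0 to 5 with 1 rat left out, where the median ran from -0.91 to -0.53. DESeq2 called 346 genes in all in that comparison, the fit without a filter 436, and the summed counts 17, against 111. Robust spread called 163 genes in all, and the one fit of all 8 samples 136. The cause was not tested. Equal replicate numbers did not pair the samples, with correlations of deviations from -0.24 to 0.21 over the 6 pairs of groups. The replicate block gave 0 class II genes called in the sham comparison (20 genes in all). There the correlation was -0.24, and the crossed pairing gave 5 (346 genes in all). For age over both doses the replicate block moved the count of class II genes by less than 1.5 times. For irradiation and the interaction the count was 0 with and without the block, which says little about its effect.

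For neonatal irradiation, Ciita was at -9.52e-04 with its longest transcript. With 1 rat left out it ran from -0.27 to 0.41, RT1-DMa from -0.016 to 0.39, and RT1-DMb from -0.46 to 0.0058. For irradiation at 4 months the median ran from -0.012 to 0.31, Cd74 from -0.022 to 0.43, Ciita from -0.086 to 0.42, RT1-Ba from -0.042 to 0.35, RT1-Da from -0.10 to 0.25, and RT1-Db1 from -0.0012 to 0.33. The interaction median ran from 0.19 to 0.56. Both ends of the last 2 comparisons come from leaving out a 4m0Gy rat. No alternative called a class II gene for irradiation or the interaction.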

Other observations

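The file lists 26 transcripts of the 8 class II genes, and within a gene they gave nearly the same age difference. For Cd74, 2 transcripts with totals of 32065 and 32218 counts both gave a log2 ratio of -0.56 (4m to 1w, group mean CPM, no test). For RT1-DMa, 4 transcripts gave 0.12. The exception was RT1-Db1, whose 5 transcripts ran from -1.04 to -0.62. The lowest was a transcript of 280 bases with 265 counts in all, at 46, 67, 36, and 34 counts in the 1w rats.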
